A study of Solanum tuberosum with 6 samples.

Results

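The miR482, miR2118 and miR5300 superfamily was examined in small RNA of potato leaves. Its members were the sequences of the deposited miRNA table that are named miR482, miR2118 or miR5300, with a lower-case miR and no further digit, on either arm and at any length. This gave 16 of the 910 sequences of the table, 15 named miR482 and 1 named miR5300, and 0 named miR2118. A further 5 sequences written with a capital MIR were left out. The prefix stu or sly is that of the potato or tomato miRNA whose name the sequence carries, and does not give the precursor it was matched to.

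These miRNAs base-pair with the mRNA segment that encodes the P-loop, a conserved stretch of the nucleotide-binding domain of NBS-LRR immune receptors, and so can pair with many receptor mRNAs at once. In Solanaceae they are mostly 22 nt long, a length that lets a plant miRNA start the production of phased secondary siRNAs from the mRNA it cuts. In tomato, lower levels of miR482 during infection are known to go with higher levels of receptor mRNAs.

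All plants were potato cv. Shepody, grown from seed tubers in a greenhouse and sampled at an age of 24 days after emergence, 72 h after a foliar spray. Control leaves (C1, C3 and C5) received water. KPhi treated leaves (T2, T4 and T6) were sprayed with a commercial product of potassium phosphite, diluted to 1% (v/v) in water, at 5 mL per plant. Each group holds 3 libraries, which the study's methods call biological replicates. All samples share 1 cultivar and 1 time point, and the KPhi samples share 1 dose. The labels do not say whether a library came from 1 plant or several, and the table holds no mRNA with which to check the tissue.

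The libraries had between 4133739 and 8025802 mappable reads, and between 160906 (T4) and 612257 (C1) reads in the miRNA table after rounding. T4 stood apart in its composition. Predicted sequences with no known precursor (group 4a of the table) took 19.9% of its table reads, against 4.42% to 7.21% in the other 5 libraries. The factors of TMM, which scales libraries so that the bulk of sequences is level, were 1.85 in T4 and between 0.7456 and 0.9465 elsewhere. Of the mappable reads, the table held between 9.14% and 11.3% in the controls, but 4.56% in T2 and 3.66% in T4, with 9.35% in T6. Levels below are CPM (reads scaled to a common library size) after TMM scaling unless another scale is named. In whole leaves, fewer cells of a type and less RNA per cell cannot be told apart.

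Together the members held 185837 of the 2540849 reads of the table, or 7.31%, and 99.8% of these lay in 7 main sequences. The 7 sequences are printed 5′ to 3′ from the deposited table, with the seed, bases 2 to 8, in capitals, because the results turn on members that differ in a few bases.
stu-miR482a-3p: tTTCCAATtccacccattccta
stu-miR482b-3p: tTACCGATtccccccattccaa
stu-miR482c: tTTCCTATtccacccatgccaa
stu-miR482d-3p: tCTTGCCTacaccgcccatgcc
stu-miR482e-3p: tCTTGCCAataccgcccattcc
sly-miR482e-3p: tCTTTCCTactcctcccatacc
sly-miR5300: tCCCCAGTccaggcattccaac
All 7 were 22 nt long and began with T (U in the RNA), and each had a seed of its own. Outside the members, the seed of stu-miR482c recurred in 1 sequence of the table, stu-miR8039, with 2 reads over all libraries.

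The 6 miR482 sequences of the 3p arm nevertheless had a common frame. When stu-miR482d-3p, stu-miR482e-3p and sly-miR482e-3p were shifted by 2 nt, because they start 2 nt earlier on that frame, 14 bases were identical in all 6, and sly-miR5300 kept 11 of these 14 with an offset of 1 nt. The same sequences are printed with these bases in capitals to show where the identity lies.
stu-miR482c: TTtCCtAttCCaCCCATgCCaa
stu-miR482e-3p: tcTTgCCaAtaCCgCCCATtCC
sly-miR5300: TcCCcAgtCCaggCATtCCaac
The 2 nt shift moves the seed along the frame, so that stu-miR482d-3p, stu-miR482e-3p and sly-miR482e-3p have seeds that begin with CTT, and stu-miR482a-3p, stu-miR482b-3p and stu-miR482c do not. Compared end to end without a shift, the closest pairs differed at 3 bases. Counted from 1 at the 5′ end, with the first-named sequence given first, stu-miR482a-3p and stu-miR482c differed by A6T, T18G and T21A, and stu-miR482e-3p and stu-miR482d-3p by A8T, T10C and T20G. In both pairs 1 of the 3 differences lay in the seed. With the 2 nt shift, stu-miR482a-3p and stu-miR482e-3p also differed at 3 of 20 aligned bases, as did stu-miR482c and sly-miR482e-3p.

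Of the 5 potato precursor genes found in the RefSeq gene table (assembly SolTub_3.0), MIR482C, MIR482D and MIR482B were listed next to each other, MIR482E followed after 1 other gene, and MIR482A was listed elsewhere. The RefSeq table held no gene named for miR5300 or miR2118.

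In the controls the most abundant members were stu-miR482e-3p, stu-miR482d-3p and sly-miR482e-3p, with means of 18052 ± 5782, 17258 ± 4198 and 13587 ± 2222 CPM (SD, n = 3). They were followed by sly-miR5300 with 8404 ± 702 CPM and stu-miR482c with 6415 ± 1229 CPM (SD, n = 3). The lowest were stu-miR482b-3p with 4552 ± 1598 CPM and stu-miR482a-3p with 3357 ± 907 CPM (SD, n = 3). The values of neighbours in this order overlapped between libraries, except for sly-miR482e-3p and sly-miR5300 and for sly-miR5300 and stu-miR482c. All 7 stood among the 32 most abundant of the 910 sequences in every library. The order describes reads of each sequence and not the amounts of RNA.

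**Figure D1:**
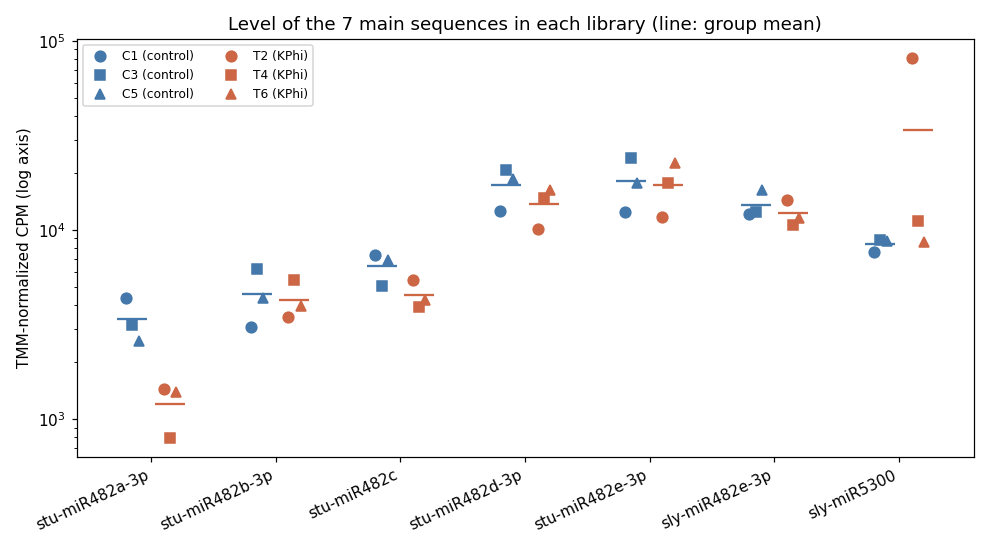
TMM-normalized CPM (log axis) of the 7 main sequences in the control (C1, C3, C5) and KPhi (T2, T4, T6) libraries, with the mean of each group as a line. All 3 KPhi libraries of stu-miR482a-3p lie below all 3 controls, and the KPhi mean of sly-miR5300 is carried by T2 at 81138 CPM.

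The question of the design was which miRNAs differ between KPhi treated and control leaves 72 h after the spray. It was addressed over the whole table with edgeR's quasi-likelihood test. Of the 910 sequences, 165 had at least 10 reads in at least 3 libraries and were tested, among them 9 of the 16 members. At an adjusted p under 0.05 (Benjamini-Hochberg over the 165) 0 sequences were called by edgeR (0% of those tested), 0 by DESeq2 and 0 by limma-trend. At an unadjusted p under 0.05, edgeR gave 16 sequences (9.70%), DESeq2 27 (16.4%) and limma-trend 9 (5.45%). The 16 of edgeR held 2 members, stu-miR482a-3p on the lower side, where 7 sequences (4.24%) lay, and sly-miR5300 on the higher side, where 9 (5.45%) lay. The member count was 0 without C1, and 1 with table totals as the scale, sly-miR5300. It was also 1, but stu-miR482a-3p, with mappable reads as the scale, with limma-trend and without C3, C5 or T2. Without T4 it was 2, but these were sly-miR5300 and sly-miR482e-5p. With table totals, stu-miR482a-3p had an unadjusted p of 0.0561 in edgeR. The control and KPhi libraries did not overlap for 28 of the 165 sequences (17.0%), with KPhi below control in 15 (9.09%) and above it in 13 (7.88%). Among the 9 members tested they did not overlap for 1, stu-miR482a-3p, where KPhi was below.

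stu-miR482a-3p, the main member with the fewest reads over all libraries, was at 4359, 3121 and 2591 CPM in the controls C1, C3 and C5, and at 1444, 793 and 1382 CPM in T2, T4 and T6. Every KPhi library was below every control library, and T4 was the lowest. The means were 3357 ± 907 CPM in control and 1206 ± 359 CPM in KPhi leaves (SD, n = 3 each), and the log2 fold change was -1.48 (SE 0.45). With edgeR the unadjusted p was 0.0072 and the adjusted p 0.470, so the difference did not pass the threshold over the whole table.

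On a scale that does not use the miRNA table the groups did not overlap either. How many of all tested sequences lacked overlap on this scale was not counted. In CPM of the mappable reads, stu-miR482a-3p was at 465, 229 and 212 in the controls C1, C3 and C5, and at 60.2, 53.9 and 121 in T2, T4 and T6. The highest KPhi library, here T6 and not T2, was again below the lowest control. On this scale the median log2 fold change of all tested sequences was also negative, at -0.49. The table as a whole held less of the mappable reads in T2 and T4 than in the controls, as given above. Low values there are therefore not particular to stu-miR482a-3p. The log2 fold change of stu-miR482a-3p stayed between -1.95 and -1.07 over the 18 alternatives tried, with adjusted p from 0.0852 (DESeq2) to 0.701. It was -1.07 without C1 and -1.12 without T4, with unadjusted p of 0.0619 and 0.0513 in edgeR. With group 4a, which was most abundant in T4, left out of the table it was -1.31.

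stu-miR482c, the nearest relative of stu-miR482a-3p end to end, was at 7327, 5018 and 6901 CPM in the controls C1, C3 and C5, and at 5411, 3892 and 4266 CPM in T2, T4 and T6. The groups overlapped, because T2 was above C3. The log2 fold change was -0.50 (SE 0.40, adjusted p = 0.610 with edgeR). It was -0.06 when libraries were scaled by table totals, -0.99 by mappable reads, -0.30 without group 4a, -0.24 without C1, -0.33 without C5 and -0.25 without T4. Some reads were divided between stu-miR482a-3p and stu-miR482c by the authors' assignment. The reads of stu-miR482a-3p were not whole in 4 of the 6 libraries, whereas the sum of both was whole in all 6.

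A ratio within a library does not depend on how libraries are scaled. The reads of stu-miR482a-3p divided by those of stu-miR482c gave 0.595, 0.622 and 0.375 in the controls C1, C3 and C5, against 0.267, 0.204 and 0.324 in T2, T4 and T6. All 3 KPhi ratios were below all 3 control ratios. The log2 ratio averaged -0.95 ± 0.40 in control libraries and -1.94 ± 0.33 after KPhi (SD, n = 3 each), which differ by -0.99. The exact two-sided permutation test gave p = 0.1, which is the smallest p that 3 libraries against 3 allow, and p = 0.2 after adjustment over the 2 ratios tested. How far the division of shared reads moved this ratio was not tested.

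The A6T difference lies in the seed, and its place in the pairing with receptor mRNAs is shown on sites of a pair of transcripts. Candidate target sites come from the sequence column of the study's target prediction, and base pairs were counted here by the Watson-Crick rule, with G:U pairs counted apart. The sites are RNA, 5′ to 3′, with bases that pair with the named miRNA in capitals.
stu-miR482a-3p on a transcript annotated as a TIR-NBS-LRR resistance protein: guGGcgUuGGUGGAAUUGGAAA
stu-miR482c on the same site: gUGGCgUuGGUGGAAUuGGAAA
stu-miR482a-3p on a transcript annotated as resistance protein PSH-RGH7: UAGGAAUGGGgGGAAUaGGAAA
stu-miR482c on the same site: UaGGaAUGGGgGGAAUAGGAAA
On the TIR-NBS-LRR site, stu-miR482a-3p paired at 7 of 7 seed bases and at 17 of 22 bases in all, while stu-miR482c paired at 6 of 7 and at 18 of 22. On the PSH-RGH7 site the seed counts were the other way round, 6 of 7 for stu-miR482a-3p and 7 of 7 for stu-miR482c, with 20 and 19 of 22 bases paired in all. On these sites, chosen as examples, each member of the couple had a full seed match where the other had 1 seed mismatch. This exchange was not general. Another transcript annotated as resistance protein PSH-RGH7 had a site predicted for stu-miR482a-3p only. There stu-miR482a-3p paired at 6 of 7 seed bases and stu-miR482c at 5 of 7. The other 22 nt sites predicted for both miRNAs had the seed counts of the TIR-NBS-LRR site. Among sites predicted for only 1 of them, some had the same seed counts in either direction. Sites on transcripts annotated as NBS-coding resistance gene protein paired at 7 of 7 seed bases with stu-miR482c and 6 of 7 with stu-miR482a-3p. A site on a transcript annotated as nematode resistance had the reverse. Many other sites predicted for only 1 of them had a full seed match with neither. The series has no mRNA measurements in the files used here, so the levels of these transcripts were not analysed.

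**Figure D2:**
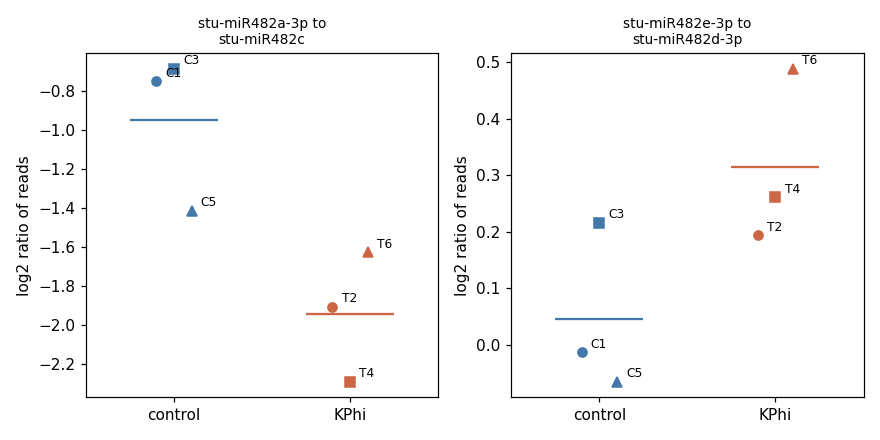
Log2 ratio of reads within each library for the pairs of main members closest end to end, with group means as lines. The ratio of stu-miR482a-3p to stu-miR482c is lower in all 3 KPhi libraries than in any control, and that of stu-miR482e-3p to stu-miR482d-3p overlaps between the groups.

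stu-miR482e-3p was at 12450, 23998 and 17707 CPM in the controls C1, C3 and C5, and at 11621, 17623 and 22659 CPM in T2, T4 and T6. Its close relative stu-miR482d-3p was at 12569, 20668 and 18535 CPM in the controls C1, C3 and C5, and at 10159, 14709 and 16150 CPM in T2, T4 and T6. Both overlapped widely between the groups, and T2 was the lowest library of each. The log2 fold changes were -0.06 (SE 0.45, adjusted p = 0.927 with edgeR) for stu-miR482e-3p and -0.34 (SE 0.42, adjusted p = 0.743 with edgeR) for stu-miR482d-3p.

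The reads of stu-miR482e-3p divided by those of stu-miR482d-3p gave 0.991, 1.16 and 0.955 in the controls C1, C3 and C5, against 1.14, 1.20 and 1.40 in T2, T4 and T6. T2 was below C3, so the groups overlapped. The log2 ratio averaged 0.05 ± 0.15 in control libraries and 0.31 ± 0.15 after KPhi (SD, n = 3 each), which differ by 0.27 (exact two-sided permutation test, p = 0.2, and 0.2 after adjustment over the 2 ratios).

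stu-miR482b-3p, whose gene is listed beside that of stu-miR482d-3p, was at 3046, 6227 and 4384 CPM in the controls C1, C3 and C5, and at 3469, 5414 and 3960 CPM in T2, T4 and T6. All 3 KPhi values lay within the range of the controls, and the log2 fold change was -0.09 (SE 0.44, adjusted p = 0.902 with edgeR). sly-miR482e-3p was at 12178, 12435 and 16148 CPM in the controls C1, C3 and C5, and at 14442, 10626 and 11616 CPM in T2, T4 and T6. C5 was the highest library and the groups overlapped, with a log2 fold change of -0.15 (SE 0.40, adjusted p = 0.833 with edgeR). The nearest sequence to sly-miR482e-3p outside the members was the predicted PC-3p-22248_95, identical at 16 of 19 aligned bases and with 138 reads.

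sly-miR5300, which in tomato also pairs with receptor mRNAs of the NBS-LRR class, was at 7594, 8852 and 8765 CPM in the controls C1, C3 and C5, and at 81138, 11090 and 8584 CPM in T2, T4 and T6. T2 alone stood far above the rest, and T6 lay within the range of the controls. T2 held 59.9% of all reads of the sequence and was 9.04 times the mean of the 5 other libraries, which was 8977 ± 1284 CPM (SD, n = 5). The log2 fold change over all 6 libraries was 2.00 (SE 0.78, unadjusted p = 0.0269 and adjusted p = 0.470 with edgeR), and 0.26 without T2 (adjusted p = 0.863). It was 1.17 when libraries were scaled by mappable reads and 1.18 with limma-trend. Over the 18 alternatives the adjusted p ran from 0.0524 (no filter) to 0.863.

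The excess of T2 was not shared by the other members. Of the 165 sequences tested 44 were highest in T2, and of the 7 main members 1. Only 2 of the 165 had a T2 value at least 7.32 times that of the highest other library, sly-miR5300 itself and sly-miR396a-5p, whose family targets GRF (growth-regulating factor) transcription factors, with 10.2 times. The sequence left out as sly-MIR5300-p3_1ss14TC, named for the p3 arm of the miR5300 precursor, had 22, 12 and 9 reads in the controls C1, C3 and C5, against 20, 23 and 19 in T2, T4 and T6. In CPM it was at 38.0, 34.4 and 26.6 in the controls C1, C3 and C5, against 59.7, 77.3 and 36.6 in T2, T4 and T6. T2 and T4 were above every control, and T4 was the highest. The log2 fold change was 0.78 (SE 0.50, adjusted p = 0.590 with edgeR). In T2 it made up 0.0735% of the reads of both sequences (95% exact interval 0.0449% to 0.113%), against 0.410% (0.297% to 0.551%) in the pooled controls. The share was 0.692% (0.439% to 1.04%) in T4 and 0.424% (0.256% to 0.662%) in T6. Its 20 reads in T2 were within the range of the control counts, so the low share restates the excess of sly-miR5300 in T2. These intervals cover counting error only.

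**Figure D3:**
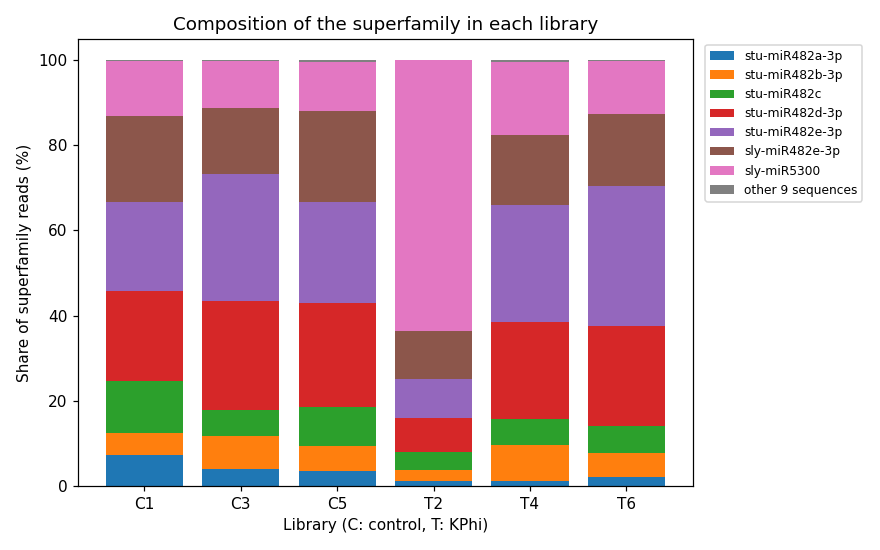
Share of superfamily reads (%) taken by each main sequence in each library, with the other 9 members in grey. sly-miR5300 takes 63.5% of the reads in T2 and between 11.0% and 17.2% elsewhere.

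The superfamily as a whole took 0.637%, 0.592% and 0.616% of the mappable reads in the controls C1, C3 and C5, against 0.534%, 0.436% and 0.600% in T2, T4 and T6. T6 was above C3, so the groups overlapped. Without sly-miR5300 the shares were 0.556%, 0.527% and 0.544% in the controls C1, C3 and C5, against 0.195%, 0.361% and 0.525% in T2, T4 and T6. All 3 KPhi libraries were then below the controls, T6 by the smallest margin. As a share of the miRNA table, the members without sly-miR5300 took 4.93%, 5.34% and 5.95% in the controls C1, C3 and C5, against 4.27%, 9.85% and 5.62% in T2, T4 and T6, which overlapped, with T4 the highest. The order of the groups thus depended on the denominator, and the table itself held less of the mappable reads in T2 and T4, as given above.

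Within the superfamily, stu-miR482a-3p made up 7.30%, 3.88% and 3.44% of the reads in the controls C1, C3 and C5, against 1.13%, 1.23% and 2.01% in T2, T4 and T6. It was below all controls in every KPhi library, also with sly-miR5300 left out of the denominator, where the controls had 8.37%, 4.36% and 3.90% and the KPhi libraries 3.09%, 1.49% and 2.30%. stu-miR482c made up 12.3%, 6.23% and 9.17% in the controls C1, C3 and C5, against 4.23%, 6.05% and 6.21% in T2, T4 and T6. Its groups also did not overlap, but they did without sly-miR5300, at 14.1%, 7.0% and 10.4% against 11.6%, 7.31% and 7.09%. These shares are a description and were not tested.

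The remaining 9 members were rare. They were 6 sequences of the 5p arm, 2 single-base variants of sly-miR482e-3p and a 27 nt sequence, sly-miR482b_R+5, which starts with the whole of stu-miR482d-3p. sly-miR482e-5p had 29, 26 and 34 reads in the controls C1, C3 and C5, against 7, 21 and 15 in T2, T4 and T6, all 3 KPhi counts being below the controls, but its CPM of 70.6 in T4 was above that of C1 at 50.0. Its log2 fold change was -0.91 (SE 0.59, adjusted p = 0.590 with edgeR). It was -0.23 with table totals, -0.57 without C5 or without T2, and -1.44 without T4 (unadjusted p = 0.0290 and adjusted p = 0.317 in edgeR), the adjusted p running from 0.317 to 0.981 over the 17 alternatives. sly-miR482d-5p_R-4, a 17 nt sequence, had 57, 17 and 40 reads against 15, 38 and 29, which overlapped, with a log2 fold change of -0.23 (SE 0.59, adjusted p = 0.833 with edgeR).

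The other 7 were not tested for want of reads. stu-miR482e-5p had 44 reads over the 6 libraries, stu-miR482b-5p 21, stu-miR482d-5p 9 and stu-miR482a-5p 4, the last with 0 in all 3 KPhi libraries, where 1437.5 reads of stu-miR482a-3p allow it a share of up to 0.256% (95% exact interval over the pooled reads, for counting error only). The 2 single-base variants of sly-miR482e-3p had 2.6 and 0.6 reads, fractional because reads were divided between sequences, and sly-miR482b_R+5 had 2. Over all libraries the 5p arm made up 0.0674% of the reads of both arms for stu-miR482a, 0.204% for stu-miR482b, 0.0244% for stu-miR482d, 0.103% for stu-miR482e and 0.425% for sly-miR482e. The 3p arm was the abundant one in these 5 miR482 pairs.

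Of the 6 sequences of the 5p arm, those that share a seed are shown. They are the other arm of the hairpins, rich in G where the 3p arm is rich in C, again with bases 2 to 8 in capitals.
stu-miR482e-5p: aGTGGGTGgtgtggtaagatt
sly-miR482e-5p: tGTGGGTGgggtggaaagatt
stu-miR482b-5p: gGAGTGGGtggcatggtaaga
sly-miR482d-5p_R-4: gGAGTGGGtgggatgga
Here seeds were shared, GTGGGTG by the first pair and GAGTGGG by the second, unlike among the main 3p sequences. The seeds of stu-miR482d-5p and stu-miR482a-5p were not shared with any other member.

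Of the 9 tested members 1 had a positive and 8 a negative log2 fold change, with a median of -0.23. Over all 165 tested sequences 72 were positive and 93 (56.4%) negative, with a median of -0.13. Only stu-miR482a-3p and sly-miR5300 had fold changes larger than 2 SE, which restates the edgeR test, and the signs of 5 others turned with the scaling. When libraries were scaled by table totals alone the median of all sequences was 0.35, and stu-miR482b-3p, stu-miR482d-3p, stu-miR482e-3p, sly-miR482e-3p and sly-miR482d-5p_R-4 had positive values. Scaled by mappable reads the median of all sequences was -0.49. Relative to the median of all sequences, stu-miR482a-3p was at -1.35 with TMM, at -1.45 with table totals and at -1.46 with mappable reads.

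**Figure D4:**
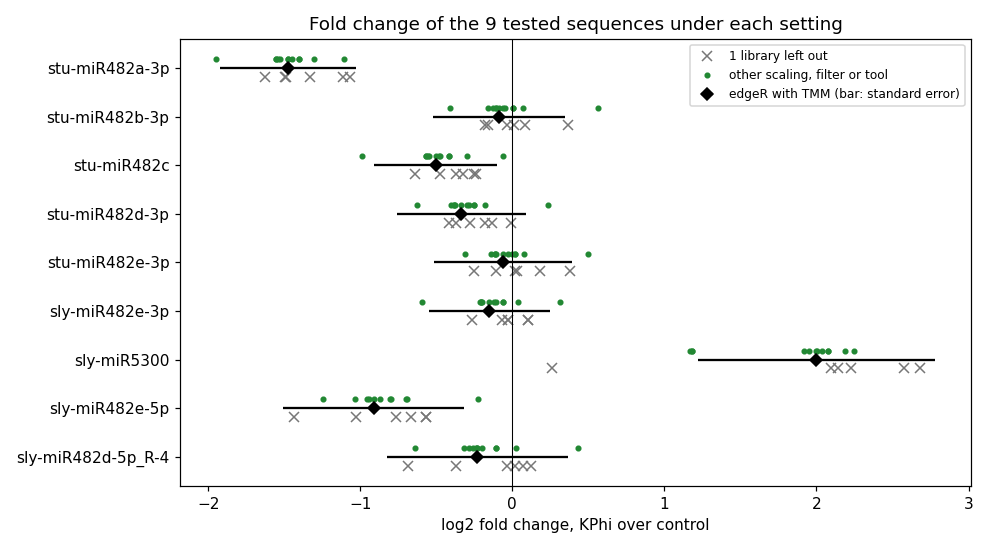
Log2 fold change (KPhi over control) of the 9 tested members with TMM scaling in edgeR (black, bar is 1 standard error) and under the alternatives (green, other scaling, filter or tool; grey crosses, 1 library left out). stu-miR482a-3p stays below -1 throughout, and sly-miR5300 drops to 0.26 only without T2.

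Profiles over the 6 libraries were compared by the root mean square difference of centred log2 CPM, as a description over libraries that share their treatment groups and depth. Among the main members stu-miR482d-3p and stu-miR482e-3p were closest (0.18), and stu-miR482b-3p lay 0.25 and 0.27 from them. stu-miR482c was closer to sly-miR482e-3p (0.25) than to stu-miR482a-3p (0.58), although it differed from either at 3 aligned bases. sly-miR5300 was at least 1.15 from every other main member.

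Among the 156 tested sequences that are no members, the profiles nearest to stu-miR482a-3p were sly-miR166c-3p_R+1 (0.34), stu-miR171a-5p (0.40) and sly-miR166a_R+1 (0.45), against a median of 0.99. All 3 had every KPhi library below every control. The profiles nearest to sly-miR5300 were the predicted PC-3p-10278_209 (0.45), sly-miR396a-5p (0.61) and sly-miR6027-5p (0.63), against a median of 1.35. All 3 were highest in T2, with 796 CPM for PC-3p-10278_209, 15015 CPM for sly-miR396a-5p and 274 CPM for sly-miR6027-5p. Both sets were chosen for like profiles over these same libraries, so the shared patterns follow from the choice and add no support.

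Other miRNA families that pair with immune receptor mRNAs, such as miR6019, miR6024 and miR6027, gave 22 sequences, of which 7 were tested. Of these 3 had positive and 4 negative log2 fold changes (median -0.19), and 0 passed an adjusted or an unadjusted p of 0.05 in edgeR. They ran from -0.85 (SE 0.69) for sly-MIR6023-p3_1ss13GT to 1.97 (SE 1.00) for stu-miR6026-3p, which like sly-miR5300 was highest in T2, with 54 of its 95 reads.

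The families that feed back on the small RNA machinery, miR162 (Dicer-like 1), miR168 (Argonaute 1) and miR403 (Argonaute 2), gave 15 sequences, of which 8 were tested. Of these 5 had positive and 3 negative log2 fold changes (median 0.33), and 0 passed an adjusted or an unadjusted p of 0.05 in edgeR. They ran from -0.69 (SE 0.52) for stu-miR162a-5p to 0.87 (SE 0.73) for stu-miR162a-3p, the opposite arms of 1 precursor.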

How the data were processed

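Small RNA libraries from 6 leaf samples (3 control, 3 KPhi) were analysed, with groups taken from the labels. The authors trimmed adapters and filtered reads by length with ACGT101-miR (version not given in the sources used here) and used BLAST against miRBase precursors of both species (potato first, then tomato) and against the potato genome. The deposited read counts per filter step gave the mappable reads. The deposited expected counts (reads per sequence, some split between sequences by a rule not given in the sources used here) were the main data, rounded to whole numbers for count tests. The authors' deposited normalized signal, reads divided by 1 parameter per library with 0.001 for 0 reads, was used only in limma-trend. The deposited table of the authors' own comparison (p-values and group means) was not used.

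Members and lists were chosen with earlier results of these data known. Testing was by edgeR 4.0.16 (TMM, quasi-likelihood, Benjamini-Hochberg, threshold 0.05), for sequences reaching 10 reads in 3 or more libraries. The SE of a fold change was derived from that test, as the absolute log2 fold change divided by the square root of the F statistic. The study used a test on normalized values, and the count model was preferred because reads were deposited. The biological coefficient of variation was 49.8%. Counts of the 910 sequences were simulated with this same variation for all, and with no shift in composition such as that of T4. Among changed sequences that passed the filter, 4.20% of the 2-fold changes were called, and 52.8% and 95.5% of those of 4-fold and 8-fold. Library ratios were compared by exact permutation tests.

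All member sequences were to be named, the 7 main ones in full, with the 3 nearest profiles of stu-miR482a-3p and sly-miR5300 and the extremes of both lists. Other names were added after their values were seen. Alternatives were RLE factors, table totals, mappable reads, the authors' library parameters, DESeq2 1.42.0, robust dispersion, a filter of 10 reads in all libraries or none, limma-trend 3.58.1 with a pseudocount of 1 or 10, omission of miR166 or of group 4a, and omission of each library. Genome coordinates are not given, since the build of the files could not be matched to the RefSeq table. Software was Python 3.11.15 (scipy 1.17.1, numpy 2.4.6, pandas 2.3.3, matplotlib 3.10.9) and R 4.3.3.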

Additional observations from a re-analysis of the deposited data

How the results depend on the processing

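No paired analysis was possible because the control libraries (1, 3 and 5) and the KPhi libraries (2, 4 and 6) share no replicate number. The count of sequences at an adjusted p under 0.05 was 0 under every alternative except no filter, which tested 841 sequences and called 4, none of them a member, and it ranged from 0 to 0 with 1 library left out. The count at an unadjusted p under 0.05 was 46 without a filter, 27 with DESeq2, 9 with limma-trend at either pseudocount, 4 without C1 and 9 without T2, against 16. The log2 fold changes of stu-miR482a-3p, stu-miR482c, sly-miR5300 and sly-miR482e-5p kept their sign under every alternative in which they were tested.

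Values near 0 changed sign. With RLE factors stu-miR482e-3p was at 0.017 and stu-miR482b-3p at 0.0022, and with DESeq2 at 0.017 and 0.0023. With table totals alone, stu-miR482e-3p was at 0.50, stu-miR482d-3p at 0.23, sly-miR482e-3p at 0.31, stu-miR482b-3p at 0.56 and sly-miR482d-5p_R-4 at 0.43. Without group 4a, stu-miR482e-3p was at 0.075, sly-miR482e-3p at 0.038, stu-miR482b-3p at 0.072 and sly-miR482d-5p_R-4 at 0.022. With 1 library left out, stu-miR482e-3p ranged from -0.25 to 0.38, stu-miR482b-3p from -0.18 to 0.37, sly-miR482e-3p from -0.26 to 0.10 and sly-miR482d-5p_R-4 from -0.69 to 0.12. The cause was not tested. The ratio of stu-miR482a-3p to stu-miR482c differed by -1.23 to -0.82 and that of stu-miR482e-3p to stu-miR482d-3p by 0.18 to 0.35 (log2) with 1 library left out, and rounding moved neither. The share of sly-miR482e-3p in the superfamily differed (KPhi minus control) by -4.19 percentage points, and by 1.74 with sly-miR5300 out of the denominator. That of stu-miR482b-3p went from -0.59 to 1.02 and that of stu-miR482e-3p from -1.58 to 3.89, both within the spread between libraries.

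In the simulation, with 3 libraries a group and a variation of 49.8% for every sequence, 2-fold changes were mostly not called. The main members other than sly-miR5300 varied less within groups, by at most 35.1% (stu-miR482b-3p in the controls). The simulation therefore does not give the share of changes that would be called for them. The absence of a call does not show that a member was level. The rare 5p sequences were limited by their counts.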
